A study of Mus musculus with 2 samples.

Results

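The genes described here encode the machinery that brings proteins into the endoplasmic reticulum (ER) and carries them onward in vesicles. They were chosen by gene symbol: the COPI subunits (Cop), the COPII, translocon, signal peptidase and R-SNARE genes named Sec, the p24 cargo receptors (Tmed), Arf1 to Arf6, the syntaxins (Stx) without Stx1a, the Vamp and Snap genes, the TRAP complex (Ssr) and the signal recognition particle (Srp). Of 12393 genes that had a probe set of their own on the array, 71 met this rule, with 147 probe sets. The rule used symbols and no measured value.

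Mouse induced pluripotent stem cells (iPSCs) were measured in 2 samples, 1 hybridized and 1 live, with 1 Affymetrix expression array each. Both came from cells kept in 2i and serum, where 2i stands for kinase inhibitors used to keep mouse pluripotency naive, and what the hybridized cells were hybridized with is not given in the labels. No strain, genotype, age or line of origin is stated, and nothing says how many cultures the RNA came from. The comparison asks how far the transcripts read from hybridized cells depart from those of live cells; with 1 array a group it allows no test, no value has a replicate error, and precision is limited by this number of arrays.

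Proteins that are secreted or built into membranes enter the ER as they are made. The signal recognition particle carries the ribosome to the Sec61 channel, and signal peptidase removes the leading peptide. COPII coats bud vesicles from the ER toward the Golgi, COPI coats, recruited by Arf GTPases, return vesicles to the ER, and SNAREs on vesicle and target membrane pair up to drive fusion. Most of these parts serve every growing cell, while Snap25, Vamp1 and some syntaxins are best known from neurons.

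Values are log2 GCRMA values, and each difference is the hybridized value minus the live value, so 1 is a 2-fold difference. Levels of different probe sets do not compare as amounts of RNA. A gene was represented by its brightest probe set and compared where the mean of both arrays was 5 or more, a set limit that is no test of presence. Over 7262 such genes the median difference was -0.17. Of these genes 41.0% were above 0, and 4248 were below 0. At the 18 hybridization control probe sets, spiked in with no relation to the cells, the median difference was -0.80, with a range from -1.22 to -0.15. Centring on these controls adds 0.80 to every difference, so any difference below between -0.80 and 0 turns positive there; directions are given as deposited. Of the pluripotency markers 9 of 9 were at the level, from 8.79 to 13.17 in the hybridized and from 8.94 to 13.14 in the live sample. Of 10 fibroblast markers 1 reached the level, of 9 neuronal markers 4 (Tubb3, Syn1, Stmn2 and Nefl), and of 7 trophectoderm markers 4 (Eomes, Krt8, Krt18 and Tfap2c). The means over the neuronal list were 5.40 hybridized and 5.72 live, those over the trophectoderm list 6.54 and 6.47, and those over the fibroblast list 2.77 and 3.25. Their part in the values of the transport genes was not tested.

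Of the 71 genes 62 reached the level, and 39 of these, or 62.9%, lay within 1.5-fold, against 52.7% of all genes. At a mean of 9 or more the share was 67.4%, against 61.6%. In the hybridized sample 4 stood 2-fold or more above the live sample, against 8.43% of all genes compared, and 5 stood 2-fold or more below it, against 15.4%. In shares of the 62 this is 6.45% and 8.06%. The median difference of the 62 genes was -0.07 and the values ran from -1.75 for Arf5 to 1.27 for Sec61a2. Arf5 reached the level only through the live array, where it is high; without it 4 of 61 were lower, the median was -0.04 and the lowest was Stx5a at -1.51. These genes are bright, and bright genes differed less in general. At a mean of 9 or more, 5 of 46 were 2-fold apart in either direction, a share of 10.9%, and so were 14.4% of all genes there. At a mean of 11 or more it was 0 of 21, against 6.31% of all genes. From 9 to under 11 it was 5 of 25, or 20%, against 19.7%, and from 5 to under 9 it was 4 of 16, or 25%, against 34.3%. The share was thus near that of all genes from 9 to 11 and below it at the other levels, on small counts from a single pair of arrays. In bulk RNA such as this, fewer cells of a type and less RNA per cell cannot be told apart.

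**Figure D1:**
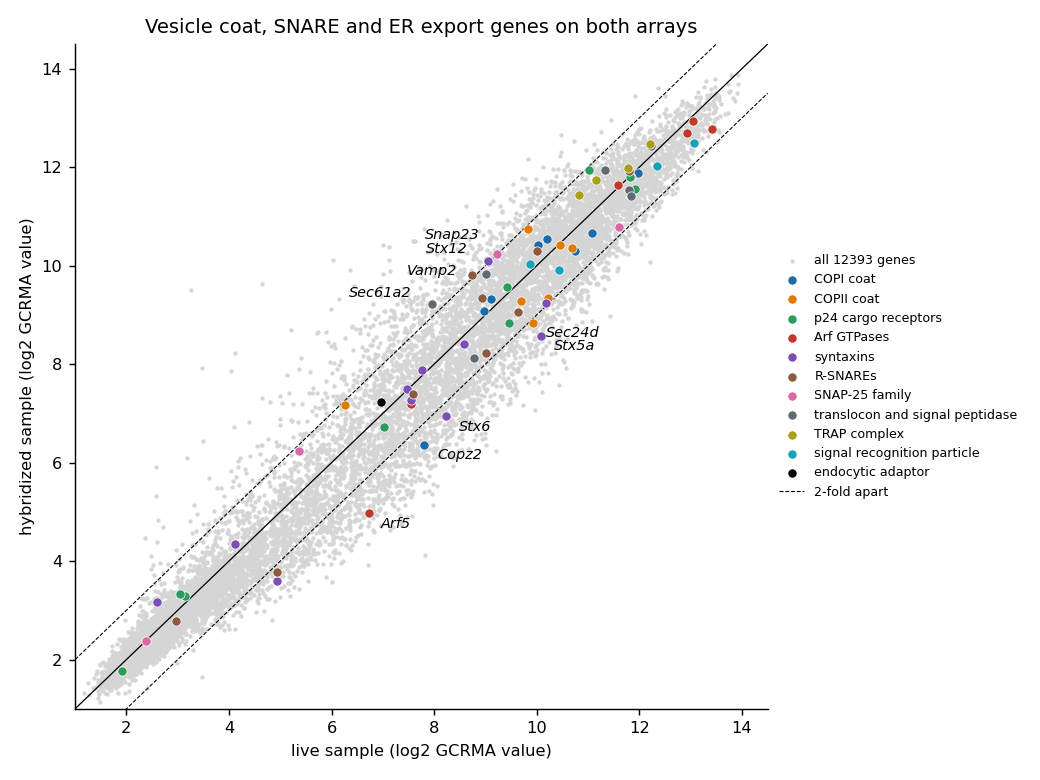
Log2 GCRMA value of each gene in the live sample (horizontal axis) and in the hybridized sample (vertical axis), with the 71 transport genes coloured by role over all 12393 genes in grey; the dashed lines mark 2-fold. Most coloured points lie between the dashed lines, and the 9 labelled genes with a mean of 5 or more lie outside them, as do Stx2 and Vamp1, which are under that level.

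The remaining 9 genes were under the level and include some best known from neurons or specialised cells. Vamp2, a vesicle SNARE of regulated exocytosis, and the endocytic adaptor Snap91 did reach the level. Snap25, the SNARE of neuronal exocytosis, read 2.38 on both arrays. Vamp1, its partner on synaptic vesicles, read 3.77 in the hybridized and 4.93 in the live sample. The R-SNARE relative Vamp5, found in muscle, read 2.78 and 2.96. Stx2, a plasma membrane syntaxin, read 3.60 and 4.94, and Stx17, a syntaxin of autophagosomes, read 4.34 and 4.11. Stx19 read 3.17 and 2.59. Among the p24 receptors Tmed6 read 3.29 and 3.14, Tmed8 read 3.33 and 3.04, and Tmed11 read 1.77 and 1.91. Values this low have no order, so no difference is drawn from them. Of the genes at the level, Arf5 alone passed with 1 array under 5. The genes nearest the limit were Snap29, with a mean of 5.81, and Arf5 above it and Vamp1, with a mean of 4.35, below it.

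The COPI coat read close to equal as deposited, on the brightest probe sets. Of its 8 genes 7 lay within 1.5-fold, beside 52.7% of all genes, 4 were above 0 and 4 below, and the median was 0. It was 0.80 with control centring, and 0.34 over the 5 genes that remained without probe sets of suffix _x_at, _s_at or _a_at. Copa, the alpha subunit that recognises retrieval signals, read 10.29 in the hybridized and 10.75 in the live sample. Copb1 read 10.42 and 10.02, Copg1 read 10.54 and 10.20, and Cope read 9.33 and 9.11. Copb2, with 11.87 and 11.97, and Copg2, with 9.07 and 8.97, differed by 0.10 each. Copz1, a zeta subunit, read 10.66 and 11.07. The exception was its paralogue Copz2, which read 6.36 and 7.81 on its only probe set, 2.73-fold lower.

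The COPII genes spread more widely. Of 8 genes 4 lay within 1.5-fold, beside 52.7% of all genes, and 6 were below 0, where 4248 of all 7262 genes were. The median was -0.18 as deposited and 0.62 with control centring. The inner coat protein Sec23a read 11.80 and 11.84, and its paralogue Sec23b read 10.36 and 10.68. The outer cage proteins Sec13, at 10.41 and 10.45, and Sec31a, at 9.29 and 9.69, were also near equal. The paralogues of Sec24, the subunit that selects cargo, parted. Sec24d read 8.84 in the hybridized and 9.93 in the live sample, 2.13-fold lower, and Sec24c read 9.35 and 10.21. Sec24b read 7.16 and 6.27, the other way round. Sec23ip, a phospholipase-like partner of Sec23, read 10.74 and 9.82. Sec23a, Sec23b, Sec13, Sec31a, Sec24c, Sec24d and Sec23ip have a single probe set each, so these values have no repeat on the arrays.

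The p24 receptors, which package cargo at the ER and Golgi, held no gene 2-fold apart among 6 at the level, beside 23.8% of all genes. Their median was -0.16 as deposited, 0.01 when centred on the median gene and 0.64 when centred on the hybridization controls. Tmed5 read 11.94 in the hybridized and 11.01 in the live sample, just inside the 2-fold limit, but its other probe set read 7.57 and 7.62. Tmed4 read 8.83 and 9.46. Tmed9 read 11.55 and 11.92, and Tmed10 read 9.57 and 9.42. Tmed7 read 11.79 and 11.82 on the brightest probe set, while a dimmer one read 10.28 and 8.06. For Tmed7 the reading thus depends on the probe set, and Tmed3, at 6.73 and 7.02, has no other.

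Of the 6 Arf GTPases, the switches that recruit coats, 5 were below 0, where 4248 of all 7262 genes were. The median was -0.30 as deposited. It was 0.40 when all probe sets of a gene were averaged and 0.50 when centred on the hybridization controls. Arf1, the main recruiter of COPI, read 12.69 in the hybridized and 12.93 in the live sample. On its other probe sets at the level it read 9.44 and 8.03, and 5.28 and 5.15. Arf3 read 12.93 and 13.05, and 9.79 and 10.69, and 9.92 and 9.07 on its others at the level. For both genes the sign thus depends on the probe set. Arf4 read 11.64 and 11.59. Arf2 read 7.19 and 7.55. Arf5 read 4.97 and 6.72 on its only probe set. It reached the level only through the live array, which fixes the direction of its difference but not the size. Arf6, which acts at the plasma membrane and in endosome recycling, read 12.77 and 13.41 on its brightest probe set.

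Of 18 SNAREs at the level 5 were 2-fold apart in either direction, or 27.8%, near the 23.8% of all genes. Among 8 syntaxins at the level, 2 were 2-fold lower and 1 was 2-fold higher, beside 15.4% and 8.43% of all genes. Their median was -0.23 as deposited, 0.05 after a loess correction on level and 0.57 with control centring. Stx5a, the syntaxin of ER to Golgi fusion, read 8.58 in the hybridized and 10.09 in the live sample, 2.85-fold lower, and its other probe set read 5.06 and 6.08. Stx6, of the trans-Golgi network, read 6.94 and 8.23, and 6.88 and 8.27 on a further probe set, so both lay more than 2-fold lower. Another probe set at the level read 5.22 and 5.62, and the mean over all probe sets of Stx6 differed by -0.64, under 2-fold. Stx3, of the apical plasma membrane, read 9.24 and 10.17 there and 7.56 and 7.23 on its other probe set at the level. Stx12, a syntaxin of recycling endosomes, was 2-fold higher on its single probe set, at 10.10 and 9.04. The late endosome pair Stx7, at 8.40 and 8.59, and Stx8, at 7.88 and 7.77, were near equal, as were Stx4a of the plasma membrane, at 7.28 and 7.54, and Stx18 of the ER, at 7.49 and 7.47.

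Of 7 R-SNAREs at the level, 1 was 2-fold apart, beside 23.8% of all genes, and the median was 0.13. The median was -0.03 at a level limit of 4, -0.18 with no limit and 0.93 with control centring. Vamp2, a vesicle SNARE of regulated exocytosis, read 9.80 in the hybridized and 8.74 in the live sample. Its other probe set, under the level, read 4.21 and 5.08. Averaged over the 2 probe sets the difference was 0.10, well inside the limit. Its close relative Vamp3, of recycling endosomes, read 11.92 and 11.79. Vamp8 read 8.23 and 9.0, and Vamp4 of the trans-Golgi network read 9.06 and 9.64. Vamp7, of late endosomes and lysosomes, read 9.35 and 8.94, and Sec22b, which serves ER to Golgi traffic, read 10.30 in the hybridized sample, 0.30 above the live one. Sec22a read 7.39 and 7.58. The SNAP-25 family gave no gene within 1.5-fold among 3 at the level, where 52.7% of all genes were. Snap23, the widely expressed relative of Snap25, read 10.24 and 9.23, and it was higher on all 3 of its probe sets, with 8.18 against 6.94 and 7.20 against 5.21 on the others. Snap29 read 6.24 and 5.37. Its other probe sets read 6.28 and 4.77, and 4.94 and 5.57, each with 1 array under 5, so their signs differed. Snap47 read 10.79 and 11.60. The rule also took Snap91, an endocytic clathrin adaptor that is no SNARE, which read 7.24 and 6.97.

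**Figure D2:**
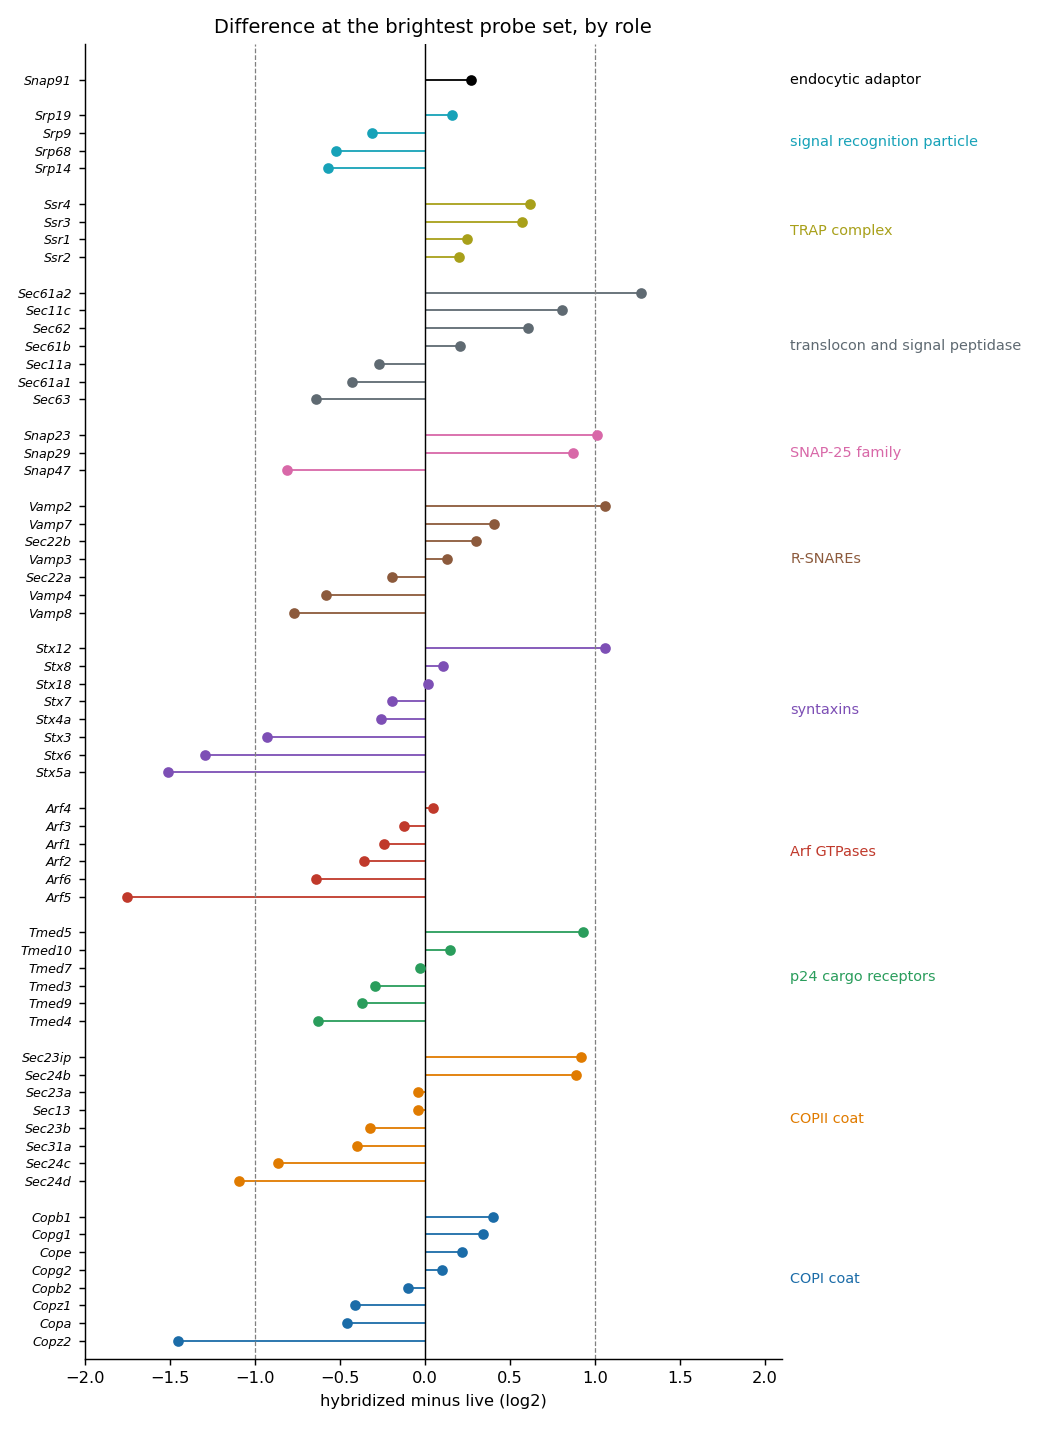
Difference between hybridized and live sample (log2, horizontal axis) at the brightest probe set of the 62 genes with a mean of 5 or more, grouped by role; the dashed lines mark 2-fold and values are as deposited. The 4 TRAP genes lie right of 0, syntaxins reach both sides of the dashed lines, and Arf5, whose hybridized value is under 5, is furthest left at -1.75; centring on the hybridization controls would move every point right by 0.80.

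Of 7 genes of the translocon and signal peptidase at the ER membrane, 3 lay within 1.5-fold, beside 52.7% of all genes. Of these 7, 1 was 2-fold higher, beside 8.43% of all genes, and the median was 0.21. Without probe sets of suffix _x_at, _s_at or _a_at the median was -0.25 over the 5 genes that remained, which leave out Sec61a2 and Sec11c. Over all 7 it was 0.64 when probe sets were averaged and 1.01 with control centring. Sec61a1, the channel's main alpha subunit, read 11.41 in the hybridized and 11.84 in the live sample, and its 4 probe sets at the level were all below 0, from -0.65 to -0.19, as deposited. Sec61a2, an alternative alpha subunit, was 2-fold higher, at 9.22 and 7.95, and 7.50 and 4.54 on its other probe set, which reached the level only through the hybridized array. The paralogues of the channel pore thus differed in sign on every probe set at the level as deposited, while with control centring Sec61a1 too turned positive. Sec61b, a small channel subunit, read 12.43 and 12.22. Sec62, which acts in post-translational entry, read 11.94 and 11.33, and its partner Sec63 read 8.13 and 8.77. The signal peptidase catalytic subunits Sec11a and Sec11c read 11.53 and 11.80, and 9.82 and 9.01.

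The TRAP complex, which sits beside the channel, had all 4 genes above 0 as deposited, beside 41.0% of all genes. The median of the 4 was 0.41. Centring on the median gene or on the controls adds to every difference, so neither could turn this sign. Without probe sets of suffix _x_at, _s_at or _a_at only 2 of the 4 genes remained. These were Ssr1 at 0.25 and Ssr4 at -0.95, with a median of -0.35. Ssr1 read 12.46 and 12.21, Ssr2 read 11.98 and 11.78, and Ssr3 read 11.73 and 11.16. Ssr4 read 11.44 and 10.82 on its brightest probe set and 6.11 and 7.06 on its other probe set at the level. The signal recognition particle had 3 of 4 genes below 0, where 4248 of all 7262 genes were. Of the 4, 0 were 2-fold apart, beside 23.8% of all genes. The median of the particle's genes, -0.42, turned to 0.38 with control centring and to 0.09 when probe sets were averaged. Without the suffixed probe sets it was 0.16 over the 3 genes that remained. Srp14 read 12.49 and 13.06, and Srp9, its partner, read 12.03 and 12.34. Srp68 read 9.92 and 10.44, and Srp19 read 10.03 and 9.87.

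The 2-fold differences could be looked up on another probe set for some of these genes. Of the 9 genes 2-fold apart, 4 had a second brightest probe set at the level, namely Stx5a, Stx6, Snap23 and Sec61a2. In 4 of 4 it was also 2-fold apart in the same direction; over all genes this held for 197 of 545, or 36.1%. The second probe set of Sec61a2 had passed the limit only through the array where it is high, and with both probe sets at 5 or more on each array, a setting chosen after seeing the data, it was 3 of 3, against 166 of 483. A further probe set of Stx6 at the level differed by -0.40 only. A further 4 genes, Arf5, Copz2, Sec24d and Stx12, had only 1 probe set, and Vamp2 had no other at the level.

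Dimmer probe sets did not always read like the brightest one of their gene. In 29 genes with more than 1 probe set at the level there were 51 further probe sets, of which 16 were 2-fold higher, a share of 31.4% where all genes gave 21.3%, and 3 were 2-fold lower, or 5.88% where all genes gave 8.37%. Of the 16, 13 belonged to 12 genes that were under 2-fold on their brightest probe set. The median difference of the 51 was 0.63, against 0.12 over 4145 such probe sets of all genes. Several of the 51 come from the same gene and share its transcripts. The share depends on the level: at a mean of 7 or more it was 7 of 34, or 20.6%, where all genes gave 19.3%. Of the 51, 5 had passed the limit through 1 array only. With both arrays at 5 or more it was 12 of 46, or 26.1%, where all genes gave 18.7%.

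The probe sets of Arf6 differed in both directions. They read 12.77 and 13.41, 11.80 and 11.03, 9.67 and 11.31, and 7.78 and 3.03 in the hybridized and live sample, so the differences ran from -1.64 to 4.75. The last of these reached the level only through the hybridized array, and among those at 5 or more on both arrays the highest difference was 0.77. Sec63 read 9.31 and 7.40 on its second probe set and 7.36 and 5.31 on a further one, against a difference of -0.64 on the brightest. Arf4 read 10.43 and 8.46 on a probe set other than its near-equal brightest one. Copb2 read 10.25 and 8.57, Vamp4 7.42 and 5.93, and Stx8 7.66 and 6.27 on such probe sets. Stx18 read 6.65 and 4.61 on a probe set that passed only through the hybridized array. Vamp3, with 5 probe sets at the level, ran from -0.75 to 1.5. In 16 of the 29 genes the probe sets spread over 1 log2 unit or more, and in 14 all shared a sign. These 2 counts were not made over all genes. The 2 brightest probe sets shared a sign in 17 of the 29, or 58.6%, near the 63.7% of 2720 genes of all kinds.

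In 21 of the 29 genes, or 72.4%, the second brightest probe set gave a higher difference than the brightest; over 2720 genes of all kinds this was 60.7%. On the same arrays, the 5′ control probe set of Actb read 11.85 in the hybridized and 10.09 in the live sample, while its 3′ one read 12.35 and 13.11. For Gapdh the 5′ values were 12.33 and 11.37 and the 3′ values 12.45 and 13.30. Both controls were thus higher at the 5′ end and lower at the 3′ end. Where the dimmer probe sets of the transport genes lie on their transcripts is not used here, and the part of this 5′ to 3′ shift in their values was not tested.

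**Figure D3:**
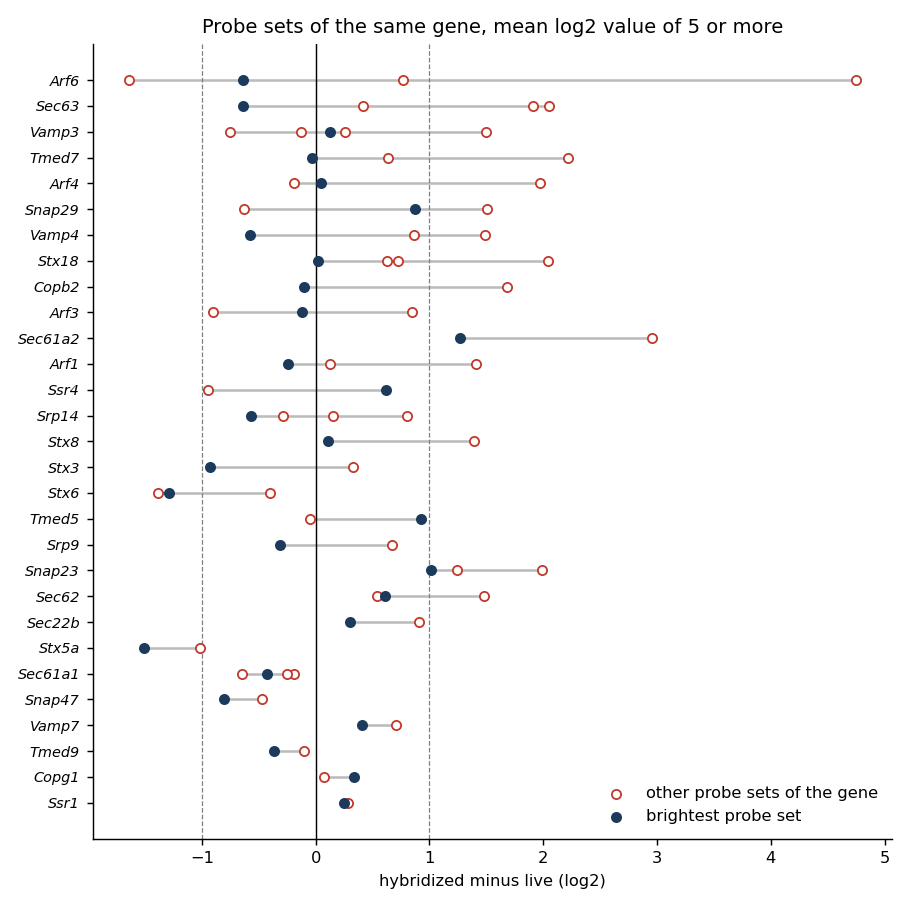
Difference between hybridized and live sample (log2, horizontal axis) at every probe set with a mean of 5 or more, for the 29 genes that have more than 1, sorted by the spread; filled points are the brightest probe set of a gene and open points its other probe sets. Open points reach further right than filled ones, with Arf6 at 4.75 on a probe set under 5 in the live sample, while Snap23 lies right of 1 and Stx5a left of -1 on all of their probe sets.

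**Figure D4:**
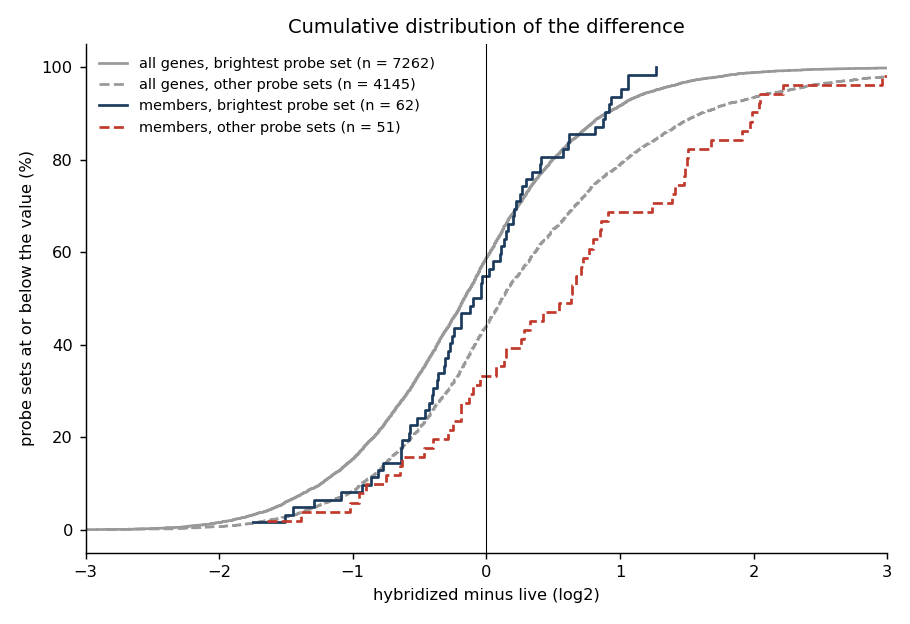
Percentage of probe sets (vertical axis) at or below each difference between hybridized and live sample (log2, horizontal axis), for the 62 brightest and 51 other probe sets of the transport genes and for those of all genes. The line of the brightest probe sets of the transport genes is steeper than that of all genes, and the line of their other probe sets lies to the right, with a median of 0.63.

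Genes that work with this machinery but fall outside the symbol rule gave a median of -0.19, beside -0.17 over all genes. The list of 105 such genes had 88 on the array and 83 at the level. Of these 3 were 2-fold higher, or 3.61%, and 9 were 2-fold lower, or 10.8%, again beside 8.43% and 15.4% of all genes. The group of the COPI subunit Arcn1 and the Arf regulators had the lowest median, at -0.98 as deposited. Of its 6 genes 3 were 2-fold lower, beside 15.4% of all genes, which is a small count. Arfgap2, a GTPase activator that turns Arf1 off on COPI vesicles, read 8.37 in the hybridized and 10.38 in the live sample, and its second probe set differed by -1.48. Arfgap1 read 7.24 and 9.07, and Gbf1, the exchange factor that turns Arf1 on at the early Golgi, read 5.98 and 7.73, with -0.99 on its second probe set. To account for the rest of the group, Arcn1, the delta subunit of COPI itself, read 11.40 and 11.16. Arfgef1 was also higher, at 10.58 and 9.93, and Arfgap3 read 6.52 and 6.73.

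Other genes of this list 2-fold lower were Golga2, a Golgi matrix protein, at 6.79 and 8.43, and Lman2, a lectin cargo receptor, at 6.22 and 7.63. Bet1l, a Golgi SNARE, read 5.51 and 6.89, but differed by 0.17 on its second probe set. Napa, the alpha-SNAP that helps take SNARE pairs apart, read 9.75 and 11.12, with -0.22 on its second probe set. Mia3, which loads collagen at ER exit sites, read 9.28 and 10.43, with -0.32 on its second probe set. The remaining gene, named after its value was seen, was Rpn1 of the oligosaccharyltransferase, at 11.24 and 12.30. In the other direction stood Scfd1, the Sec1-family partner of syntaxin 5, at 10.58 and 8.48. The partner of the lower Stx5a was thus the highest of the 83. Stxbp3, a plasma membrane member of the same family, read 8.78 and 7.26, with -0.05 on its second probe set, and Use1, a SNARE of retrograde traffic to the ER, read 11.20 and 9.71, with 0.86 on its second probe set. The COPII assembly genes had 6 of 7 below 0 as deposited, where 4248 of all 7262 genes were. Their median was -0.57, and 1 of 7 was 2-fold lower, beside 15.4% of all genes.

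The promoters of some of these genes share the core of the unfolded protein response element, TGACGTGG, which is bound by XBP1 and ATF6, the factors that raise ER capacity under stress. RefSeq windows from 250 bases before to 50 after a transcript's start (GRCm38.p6) were found for 59 of the 71 genes. Searched on both strands, TGACGTGG was in the windows of 6 of these 59, or 10.2%, and in those of 0.71% of 27025 genes and 1.13% of the 5997 compared genes with a window. In all, 16 letter strings were searched, some of them overlapping, and this string was singled out after the counts were seen. TGACGTG, which it contains, was in the same count of 6, against 3.60% of compared genes. The full ER stress element (ERSE), a longer motif whose end CCACG is also in the opposite strand of the core, was in 0 of 59 against 0.22%. The cyclic AMP element TGACGTCA was in 1 against 3.80%. CACGTG was in 8, or 13.6%, against 12.7%, and CCAAT in 24, or 40.7%, against 44.1%. A match describes these letters and is no evidence of binding.

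The 6 genes are shown with the matched letters in capitals (CCACGTCA is the same core on the opposite strand) and 11 bases on either side where the window allows, 5′ to 3′ on the gene's strand, so that the surroundings can be compared.
Arf1, chr11:59228228-59228257, minus strand: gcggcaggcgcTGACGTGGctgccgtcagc
Copb1, chr7:114254690-114254719, minus strand: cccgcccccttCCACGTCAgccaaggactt
Copb2, chr9:98563713-98563742, plus strand: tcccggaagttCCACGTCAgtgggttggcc
Sec23a, chr12:59011993-59012022, minus strand: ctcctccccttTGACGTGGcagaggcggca
Sec24d, chr3:123267459-123267488, plus strand: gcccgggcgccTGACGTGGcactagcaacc
Stx5a, chr19:8741422-8741451, plus strand: tggcgcagcagCCACGTCAccgagttagga
Stx5a, chr19:8741452-8741473, plus strand: gtacgtctaggTGACGTGGcgg
The match starts 28 bases before the start in Copb1, 26 before it in Sec24d and 7 before it in Copb2, and 6 bases after it in Sec23a. Stx5a has a match on each strand, 9 and 39 bases after the start, and in Arf1 the site is 84 bases before 1 listed start and 21 after another.

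The genes with this core included both coats, and their values did not share a direction. Copb1 differed by 0.40, Sec23a by -0.04, Copb2 by -0.10, Arf1 by -0.24, Sec24d by -1.09 and Stx5a by -1.51. Their median was -0.17, against -0.16 for the 46 genes with a window at the level and without the core. Of the 6, 2 were 2-fold lower and 0 higher, and of the 46, 3 were lower and 3 higher. Over all genes 15.4% were lower and 8.43% higher, and the counts here are small. The upstream part of the Sec24d window, chr3:123267246-123267495 on the plus strand, is printed because this gene is 2-fold lower and has the core before its start.
Sec24d: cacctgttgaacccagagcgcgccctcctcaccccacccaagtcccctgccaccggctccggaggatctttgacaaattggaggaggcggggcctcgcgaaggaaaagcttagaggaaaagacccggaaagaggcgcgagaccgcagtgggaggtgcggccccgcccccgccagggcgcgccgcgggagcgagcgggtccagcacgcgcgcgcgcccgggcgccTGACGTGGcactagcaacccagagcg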

How the data were processed

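RNA of 1 hybridized and 1 live sample was measured on 1 array each. The deposited values are 1 log2 value per probe set and array; per the submitters' processing notes the authors used GCRMA and affy, with version and order not stated there. GCRMA corrects for base composition, normalizes the arrays given to it and summarises probes, which can compress low values. Which arrays were normalized together is not stated. The medians over all probe sets were 5.67 in the hybridized and 5.73 in the live sample. The log base of 2 was inferred from the method and the range of 1.02 to 14.24. Of 22690 probe sets 64 are controls, 20380 name 1 gene, 691 several and 1555 none; only the first were used. All 71 symbols matched RefSeq names by Entrez ID (GRCm38.p6). The brightest probe set by mean stood for its gene. With 1 array per group no model was fitted. Members, lists and roles were chosen with earlier results of these data known. Values for both arrays were given for genes 2-fold apart, the 5 with the highest mean, the brightest and the 2 furthest apart in each role, those whose leading probe sets differ in sign by 1 or more, and up to 8 companion genes per direction; other members are given to account for them. The counting was tested on simulated data. Other limits, probe set choices, centrings and fold thresholds were tried. Figures were drawn with matplotlib 3.10.9, and values computed in Python 3.11.15 with pandas 2.3.3, numpy 2.4.6 and, for loess, statsmodels 0.14.6.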

Additional observations from a re-analysis of the deposited data

How the results depend on the processing

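No paired analysis was possible because each group has 1 array. The counts among the 62 transport genes (4 higher, 5 lower) moved to 11 and 12 at a fold threshold of 1.5 and to 0 and 0 at 4. Centred on the median gene 8 were higher, against 11.2% of all genes, and with quantile normalization 2 were. With the hybridization controls as centre 21 genes were higher and 0 lower, against 31.8% and 2.84% of all genes. Their median of -0.07 became 0.18 with probe sets averaged, and 0.05 over the 49 genes that remained without suffixed probe sets. It was 0.10 with median centring, 0.066 after loess and 0.73 with control centring, so its sign is not settled. For the companion genes (3 higher, 9 lower, median -0.19) the counts were 8 and 21 at 1.5-fold, 1 and 1 at 4-fold, and 24 and 2 with control centring. With probe sets averaged 5 were lower. Their median became -0.09 averaged, -0.02 with median centring, -0.059 after loess and 0.61 with control centring. Of the 51 further probe sets 16 were higher, or 31.4%, against 21.3% of those of all genes, and 3 were lower. At a level of 7 it was 7 of 34 higher, or 20.6%, against 19.3%. Without suffixed probe sets there were 20 further ones, of which 10 were higher, or 50%, against 25.6%, and 1 was lower. With control centring 31 of 51 were higher, or 60.8%, against 46.4%, and 0 were lower. These settings were chosen after seeing the data. Of 482 values for 45 single genes under the alternatives, 65 moved by more than the spread between probe sets of a gene (0.73). Of these, 45 come from control centring, whose shift of 0.80 exceeds that spread for every gene, and 20 from other settings. Sign changes were counted only for differences of 2-fold or more, where there were 0, and the centring shifts were too small to turn one. Smaller differences did turn: with probe sets averaged Arf6 went from -0.64 to 0.81 and Sec63 from -0.64 to 0.935. Values near the background limit what can be read for the 9 dim genes.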

Other observations

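Some transport genes are read by probe sets that the platform table gives to several genes, so they are uncertain and entered no count. For Tmed2, a p24 receptor whose probe sets are shared with Gm10698, 6 probe sets differed by values from -0.65 to 2.01: the brightest read 12.62 in the hybridized and 12.97 in the live sample, while 1 read 9.16 and 7.15. For Srp54a, the GTPase of the signal recognition particle, with its near copies Srp54b and Srp54c, 1 probe set read 12.52 and 10.85 and another 10.66 and 10.49. Sec61g, the gamma subunit of the Sec61 channel, read 11.43 and 11.78 on a probe set shared with predicted genes. The 4 probe sets shared by Tmed10 and its pseudogene Tmed10-ps read from 9.61 to 11.45 in the hybridized and from 9.52 to 11.89 in the live sample, and their differences ran from -0.46 to 0.09.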
